A study of Mus musculus with 564 samples.

Results

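The IL-10 cytokine locus on mouse chromosome 1 holds the genes Il10, Il19, Il20 and Il24 side by side. The cis-regulatory elements (CREs) described here are the rows of the H3K27ac table whose centre lies within 25 kb of an mm10 RefSeq transcription start of one of these genes. There were 14 such CREs of 59190 in all. By nearest start, 10 belonged to Il10, 1 to Il19, 1 to Il20 and 2 to Il24. Each CRE is named by the gene with the nearest start and the distance of its centre from that start, with a minus sign for upstream and a plus sign for downstream.

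The cells were BMDMs, macrophages grown in culture from the bone marrow of wild type male C57/BL6 mice. For 1 h before the stimulus they received either the vehicle DMSO or a kinase inhibitor in clinical use or testing (CKI), of which 58 were used. They were then left unstimulated (UT) or given LPS or IL-4, each at 10 ng/mL, for 30 min, 1 h, 2 h or 4 h. Each CKI was used at a concentration set by the study from its potency toward the intended target, so concentrations differ between CKIs. The DMSO arm had 2 libraries in each of 9 groups (UT, 4 times of LPS, 4 times of IL-4), 18 in all, and the CKI arm had 546 libraries, in most groups 1 per CKI, stimulus and time. The labels do not say that libraries came from separate mice or cultures, so the p-values measure the spread between these libraries, which may be technical.

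IL-10 is the main anti-inflammatory cytokine made by macrophages: it signals through the receptor chains IL-10RA and IL-10RB and the kinases JAK1 and TYK2 to STAT3, and dampens the inflammatory response to bacterial products. IL-19, IL-20 and IL-24 are relatives of IL-10 that signal mainly to epithelial cells through receptors containing IL-20RA, IL-20RB or IL-22RA1. LPS, a component of the bacterial cell wall, acts through TLR4 and induces Il10 in macrophages along with the inflammatory genes, while IL-4 acts through STAT6 and directs macrophages to an alternative state. H3K27ac is a histone mark of active promoters and enhancers, and its level at a CRE tracks how active the CRE is, not how much RNA a gene makes.

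The values are the authors' normalized reads per CRE, scaled between libraries and rounded to whole numbers. Their sum per library ranged from 4.07e+06 to 1.24e+07. From the spacing of the low values the value of 1 read could be estimated in 559 of 564 libraries, and the estimated reads in CREs had a median of 4.33e+06 in DMSO libraries and 1.88e+06 in CKI libraries. In DMSO libraries 3 reads corresponded to 2.88 to 7.61 normalized reads, so values of a few normalized reads rest on very few reads. The ratio of the median strong CRE to the median weak CRE (the CREs in the highest and lowest decile by mean level), called contrast below, had a median of 75.1 in DMSO libraries and 17.6 in CKI libraries. The library of PH797804 at 30 min of LPS stood apart, with 21.0% of CREs at 0 and an estimated 172458 reads. The main values of PH797804 and of the p38 class after LPS are given with and without it. Other results include it unless stated. Replicates correlated with r from 0.96 to 0.98 across CREs, which are not independent of each other. The promoter CREs of the macrophage genes Spi1, Itgam and Mertk had mean UT levels of 2082, 636 and 226 normalized reads, those of the fibroblast gene Col1a1 and the dendritic cell gene Flt3 had 3.5 and 7. Several of these markers changed with the stimulus in DMSO: Itgam was called at -2.21 after LPS and -1.80 after IL-4, Mertk at -2.30 after LPS, and Flt3 at 1.50 after IL-4 (adjusted p = 0.00153), while Spi1 was at 0.26 and -0.36, not called. Their part in the results was not tested. A CRE within 1 kb of a start was present for 3 of the 6 macrophage markers examined, 1 of 3 fibroblast markers and 1 of 2 dendritic cell markers. The macrophage genes Csf1r, Adgre1 and Cd68 had no such CRE, nor had the 3 B cell, 3 T cell and 3 neutrophil markers. The lack of a CRE at a marker therefore does not tell cell types apart here. H3K27ac in bulk samples cannot tell fewer cells carrying the mark from less mark per cell.

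The 14 CREs were 1558 to 3680 bases wide, and 12 had their centre between genes. The only one over a start of the 4 cytokine genes was Il10 +0.8 kb, at chr1:131018841-131022520, which spans the Il10 start at base 131019845 on the plus strand and has its centre in an Il10 intron. No CRE lay within 1 kb of the start of Il19, Il20 or Il24, genes on the minus strand. Il20 -7.3 kb, at chr1:130917634-130919587, was 7.3 kb upstream of Il20, and Il24 +12.1 kb had its centre in an intron of the neighbouring gene Fcmr. Il24 +22.9 kb was nearer to the start of Fcmr than to that of Il24.

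The central 300 bases of 6 CREs are shown because their H3K27ac behaved in different ways: Il20 -7.3 kb was highest at 30 min to 1 h of LPS, Il10 -18.8 kb went from almost no signal to its highest level at 2 h, Il10 +0.8 kb lies over the Il10 start, Il10 +18.5 kb was above UT after LPS within each of the 58 CKIs, and Il10 +20.8 kb and Il10 +23.1 kb were higher after 30 min of IL-4 than after 30 min of LPS. They are read 5′ to 3′ on the plus strand of mm10 (GRCm38.p6, RefSeq assembly), at chr1:130918461-130918760, chr1:131000894-131001193, chr1:131020531-131020830, chr1:131038160-131038459, chr1:131040499-131040798 and chr1:131042795-131043094. Capitals mark matches on either strand to the motifs searched: TGANTCA for AP-1, GGNNTTTCC for NF-kB, TTGCNNAA for C/EBP, TTCNNNGAA for STAT and GAAANNGAA for IRF.
Il20 -7.3 kb: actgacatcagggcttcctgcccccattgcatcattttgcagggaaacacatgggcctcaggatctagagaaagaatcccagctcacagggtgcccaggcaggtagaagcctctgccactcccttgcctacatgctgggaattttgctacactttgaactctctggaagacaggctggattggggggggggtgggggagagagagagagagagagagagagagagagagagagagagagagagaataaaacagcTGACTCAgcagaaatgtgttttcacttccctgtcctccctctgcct
Il10 -18.8 kb: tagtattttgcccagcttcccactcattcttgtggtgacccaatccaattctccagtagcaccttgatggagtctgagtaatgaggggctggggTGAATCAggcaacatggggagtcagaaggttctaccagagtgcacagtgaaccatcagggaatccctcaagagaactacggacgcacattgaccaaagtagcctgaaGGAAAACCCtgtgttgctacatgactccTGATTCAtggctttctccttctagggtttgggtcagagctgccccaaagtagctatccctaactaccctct
Il10 +0.8 kb: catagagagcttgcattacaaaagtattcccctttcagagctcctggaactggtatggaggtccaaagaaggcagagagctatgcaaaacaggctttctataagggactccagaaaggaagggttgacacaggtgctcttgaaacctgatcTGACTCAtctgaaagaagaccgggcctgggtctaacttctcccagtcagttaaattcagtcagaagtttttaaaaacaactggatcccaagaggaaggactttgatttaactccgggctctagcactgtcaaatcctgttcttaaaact
Il10 +18.5 kb: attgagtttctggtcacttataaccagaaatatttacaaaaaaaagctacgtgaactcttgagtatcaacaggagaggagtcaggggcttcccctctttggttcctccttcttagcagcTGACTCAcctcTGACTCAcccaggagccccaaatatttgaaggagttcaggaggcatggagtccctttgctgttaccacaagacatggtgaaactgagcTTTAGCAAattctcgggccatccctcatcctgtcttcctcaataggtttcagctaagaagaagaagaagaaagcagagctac
Il10 +20.8 kb: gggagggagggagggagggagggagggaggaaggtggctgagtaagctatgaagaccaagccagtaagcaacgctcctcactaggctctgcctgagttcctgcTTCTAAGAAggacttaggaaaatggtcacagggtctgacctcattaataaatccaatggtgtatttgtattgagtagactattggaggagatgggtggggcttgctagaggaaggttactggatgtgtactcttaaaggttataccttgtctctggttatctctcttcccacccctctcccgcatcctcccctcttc
Il10 +23.1 kb: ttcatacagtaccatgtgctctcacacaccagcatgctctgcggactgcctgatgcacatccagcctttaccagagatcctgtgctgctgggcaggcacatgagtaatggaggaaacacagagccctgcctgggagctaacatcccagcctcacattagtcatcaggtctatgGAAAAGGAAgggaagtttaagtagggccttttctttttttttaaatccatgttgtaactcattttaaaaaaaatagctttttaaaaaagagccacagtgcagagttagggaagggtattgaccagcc

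In these windows, Il10 -18.8 kb and Il10 +18.5 kb each held 2 AP-1 matches, and Il20 -7.3 kb and Il10 +0.8 kb held 1 each. Il10 -18.8 kb also held 1 NF-kB match, Il10 +18.5 kb 1 C/EBP match, Il10 +20.8 kb 1 STAT match and Il10 +23.1 kb 1 IRF match. AP-1 and NF-kB proteins are factors activated by TLR4 signalling, C/EBP proteins are factors of the myeloid lineage, and STAT and IRF proteins act in cytokine and interferon responses. Over all 14 members, 6 windows held an AP-1 match (42.9%, against 20.2% of the 59190 central windows of the same length), 3 an NF-kB match (21.4% against 8.09%), 4 a C/EBP match (28.6% against 14.8%), 1 a STAT match (7.14% against 9.4%) and 1 an IRF match (7.14% against 11.5%). Neither AGGAAGT, searched for PU.1, nor TGACGTCA, searched for CREB, was found in the 14 windows, and 21.7% and 0.848% of all windows held them. The motifs did not overlap in the windows shown, and a match is a description of the letters only.

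In DMSO-treated cells, LPS raised H3K27ac at nearly every distal CRE of the locus and left the CRE over the Il10 start close to its level in UT. Of the 14 CREs, 13 passed the filter on low values (a mean of at least 10 normalized reads), and 11 of these were called, all higher than UT. A CRE was called at an adjusted p under 0.01 in limma's F test over the 4 times with a difference of more than 1 on the log2(value + 5) scale at 1 time or more. Among all 50697 CREs tested, 53.5% were called in either direction and 29% were called higher. The median of the largest difference was 2.33 over the members tested and 0.37 over all CREs tested. The largest differences came at 30 min in 1 of the 11 called CREs, at 1 h in 4, at 2 h in 4 and at 4 h in 2.

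Il10 +0.8 kb, the CRE over the Il10 start, held 366 and 377 normalized reads in the UT libraries, replicates 1 and 2 in that order here and below. After LPS it held 368 and 343 at 30 min, 472 and 490 at 1 h, 398 and 364 at 2 h and 543 and 413 at 4 h. Both LPS libraries lay above both UT libraries only at 1 h and 4 h. Its adjusted p over the 4 times was 0.00445, but its largest difference was 0.37 (SE 0.13), at 1 h, and it was not called.

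The 3 CREs furthest upstream of Il10 started from almost no signal. At Il10 -18.8 kb the UT libraries held 3 and 3 normalized reads, and the LPS libraries held 15 and 22 at 30 min, 79 and 78 at 1 h, 138 and 140 at 2 h and 83 and 59 at 4 h. Il10 -17.1 kb, which lies directly beside it, held 3 and 0 in UT, 25 and 22 at 30 min, 89 and 90 at 1 h, 114 and 123 at 2 h and 62 and 61 at 4 h. All LPS libraries were above both UT libraries at these 2 CREs, and 2 h was the highest time at both. Their largest differences, at 2 h, were 4.17 (SE 0.28, adjusted p = 6.81e-15) and 4.29 (SE 0.29, adjusted p = 5.14e-15). The UT values lie near or under the value of 3 reads, and these sizes depend on the pseudocount: with 1 in place of 5 they were 5.13 and 5.90, and with 20 they were 2.79 and 2.69.

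Il10 -22.1 kb rose later. It held 7 and 1 in UT, 8 and 4 at 30 min of LPS, 41 and 32 at 1 h, 37 and 39 at 2 h and 70 and 72 at 4 h. The 30 min libraries overlapped UT and the 4 h libraries were the highest. Its largest difference was 3.16 (SE 0.36, adjusted p = 5.39e-10), at 4 h.

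Nearer to the start, Il10 -4.3 kb held 26 and 26 in UT, 66 and 96 at 30 min of LPS, 101 and 119 at 1 h, 175 and 159 at 2 h and 168 and 148 at 4 h. Il10 -2.6 kb held 26 and 12 in UT, 48 and 60 at 30 min, 94 and 78 at 1 h, 104 and 94 at 2 h and 79 and 94 at 4 h. Both were above UT at each time, with no overlap, and stayed high at 4 h. Their largest differences were 2.47 (SE 0.21, adjusted p = 3.79e-12) and 2.18 (SE 0.26, adjusted p = 1.04e-08), both at 2 h.

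Downstream of the gene, Il10 +18.5 kb held 52 and 44 in UT, 170 and 184 at 30 min of LPS, 414 and 370 at 1 h, 303 and 333 at 2 h and 313 and 329 at 4 h. Its largest difference was 2.91 (SE 0.16, adjusted p = 8.21e-18), at 1 h. Il10 +6.6 kb, closer to the gene, held 81 and 56 in UT, 157 and 198 at 30 min, 228 and 277 at 1 h, 199 and 203 at 2 h and 271 and 193 at 4 h, with a largest difference of 1.82 (SE 0.19, adjusted p = 4.39e-10) at 1 h. No LPS library of these 2 CREs overlapped UT.

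The 2 CREs at the downstream edge were not past the test at 30 min of LPS. Il10 +20.8 kb held 18 and 18 in UT, 33 and 25 at 30 min, 108 and 113 at 1 h, 83 and 91 at 2 h and 94 and 74 at 4 h. Il10 +23.1 kb held 33 and 32 in UT, 43 and 37 at 30 min, 165 and 166 at 1 h, 130 and 137 at 2 h and 103 and 92 at 4 h. The 30 min differences were 0.55 (SE 0.25, adjusted p = 0.0622) and 0.26 (SE 0.22, adjusted p = 0.323). At 1 h, the highest time of both, they were 2.33 (SE 0.25) and 2.18 (SE 0.22), with F test adjusted p of 1.28e-10 and 9.25e-12.

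Among the CREs of the other 3 genes, Il20 -7.3 kb was the only called member with its largest difference at 30 min. It held 27 and 35 in UT, 330 and 421 at 30 min, 391 and 334 at 1 h, 345 and 301 at 2 h and 162 and 133 at 4 h. All 8 LPS libraries were above UT, and the 4 h libraries were the lowest of them. The largest difference was 3.40 (SE 0.17, adjusted p = 6.06e-19). Il19 -7.3 kb stayed low, with 4 and 1 in UT, 13 and 9 at 30 min, 21 and 13 at 1 h, 16 and 15 at 2 h and 24 and 18 at 4 h. Its largest difference was 1.81 (SE 0.40, adjusted p = 0.000982), at 4 h, and this call was lost with quantile normalization (1.38), with a pseudocount of 20 (0.87) and without UT replicate 2 (1.52).

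The CREs nearest to Il24 stayed near the limit of what the depth can show. Il24 +12.1 kb held 3 and 6 normalized reads in UT, 5 and 15 at 30 min of LPS, 14 and 13 at 1 h, 22 and 21 at 2 h and 14 and 5 at 4 h. Its largest difference of 1.50 (SE 0.43, adjusted p = 0.0268) was not called. Il24 +22.9 kb held 2 and 2 in UT and between 2 and 15 in all stimulated libraries, and was below the filter.

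**Figure D1:**
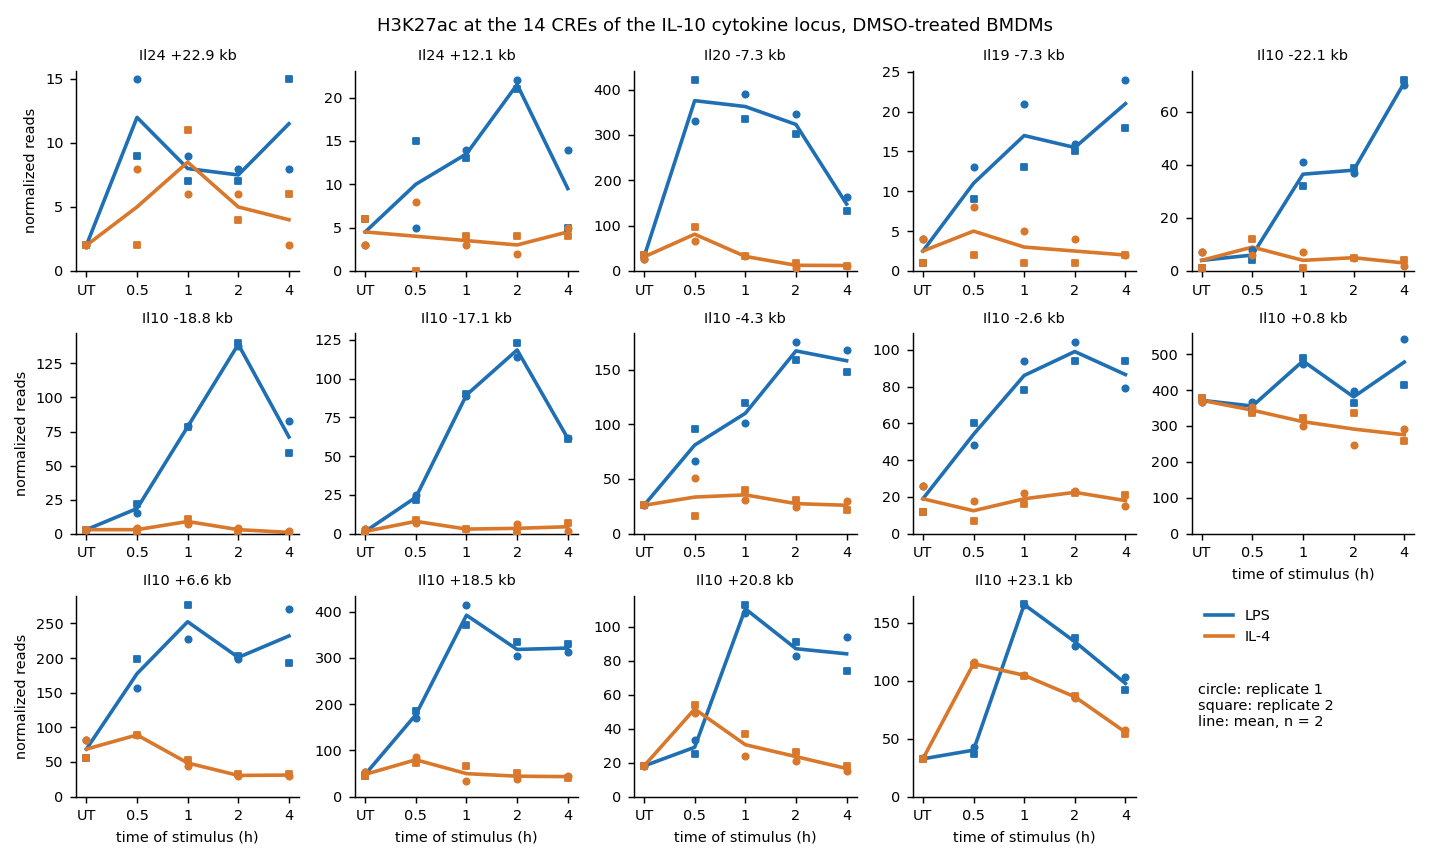
Normalized H3K27ac reads (vertical axis, linear, its own scale in each panel) against time of stimulus in h, with UT at the left, for the 14 CREs in DMSO-treated BMDMs. Points are the 2 replicates and lines their mean, blue for LPS and orange for IL-4. Il20 -7.3 kb reaches 330 and 421 at 30 min of LPS, Il10 -18.8 kb peaks at 138 and 140 at 2 h, and Il10 +23.1 kb is at 116 and 113 at 30 min of IL-4 but 43 and 37 at 30 min of LPS.

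The order in time differed between CREs of the same locus. The difference between 4 h and 30 min of LPS, a comparison added after the values had been seen, was called for 6 of 13 members tested (24.5% of all CREs tested). Il20 -7.3 kb was lower at 4 h than at 30 min by 1.32 on the log2 scale (SE 0.17, adjusted p = 8.31e-08). The other 5 were higher at 4 h: Il10 -22.1 kb by 2.81 (SE 0.36), Il10 -18.8 kb by 1.69 (SE 0.28), Il10 -17.1 kb by 1.22 (SE 0.29), Il10 +20.8 kb by 1.39 (SE 0.25) and Il10 +23.1 kb by 1.19 (SE 0.22), with adjusted p from 3.75e-08 to 0.000631. At Il10 -4.3 kb the value was 0.94 (SE 0.21), at Il10 +18.5 kb 0.84 (SE 0.16) and at Il10 +6.6 kb 0.37 (SE 0.19), and none of these was past a difference of 1.

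IL-4 changed fewer CREs of the locus than LPS, with the largest difference at 30 min in 3 of the 4 called and at 2 h in the other. Only 8 of the 14 members passed the filter on low values in the UT and IL-4 libraries. Of these, 4 were called, 3 higher than UT and 1 lower, by the sign of the largest difference. Among the 47018 CREs tested for IL-4, 24.7% were called, 13.6% higher and 11% lower. The median of the largest difference was 0.53 over the members tested and 0.21 over all CREs tested.

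Il10 +23.1 kb responded most to IL-4. It held 116 and 113 normalized reads at 30 min of IL-4, 105 and 104 at 1 h, 85 and 87 at 2 h and 57 and 54 at 4 h, against 33 and 32 in UT. All 8 libraries were above UT, and the level was highest at the first time. Its differences were 1.67 (SE 0.20) at 30 min and 0.69 (SE 0.20) at 4 h, with an adjusted p of 1.40e-09 over the 4 times. The adjacent Il10 +20.8 kb held 49 and 54 at 30 min, 24 and 37 at 1 h, 21 and 26 at 2 h and 15 and 18 at 4 h, with a largest difference of 1.30 (SE 0.31, adjusted p = 0.000685), which was no longer called without IL-4 30 min replicate 2 (1.23).

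Il20 -7.3 kb rose and then fell below its unstimulated level. It held 66 and 96 at 30 min of IL-4, 32 and 32 at 1 h, 7 and 18 at 2 h and 12 and 12 at 4 h, against 27 and 35 in UT. Both libraries were above UT at 30 min and both below it at 2 h and 4 h. The differences were 1.24 (SE 0.32) at 30 min, -1.11 (SE 0.32) at 2 h and -1.07 (SE 0.32) at 4 h, with an adjusted p of 2.38e-08 over the 4 times. From 30 min to 4 h it fell by 2.32 on the log2 scale (SE 0.32, adjusted p = 8.17e-08).

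Il10 +6.6 kb was the member called lower after IL-4. It held 89 and 89 at 30 min, 44 and 53 at 1 h, 29 and 32 at 2 h and 29 and 33 at 4 h, against 81 and 56 in UT. Its largest difference was -1.03 (SE 0.25, adjusted p = 2.47e-06), at 2 h, and was -0.78 and no longer called without UT replicate 1. The difference between 4 h and 30 min of IL-4 was called for 3 of 8 members (10.2% of all CREs tested): Il20 -7.3 kb, Il10 +6.6 kb at -1.39 (SE 0.25, adjusted p = 1.30e-05) and Il10 +20.8 kb at -1.40 (SE 0.31, adjusted p = 0.000301).

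At the Il10 start, the values after IL-4 were 352 and 336 at 30 min, 301 and 323 at 1 h, 248 and 335 at 2 h and 293 and 258 at 4 h. All 8 lay below the lower UT library, at 366. The largest difference was -0.43 (SE 0.12, adjusted p = 0.0115), at 4 h, and Il10 +0.8 kb was not called. The other CREs that LPS raised had no call after IL-4.

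At Il10 -4.3 kb the IL-4 libraries held 51 and 16 at 30 min, 31 and 40 at 1 h, 24 and 31 at 2 h and 30 and 22 at 4 h. Il10 -2.6 kb held 18 and 7, 22 and 16, 23 and 22, and 15 and 21 at the same times, and Il10 +18.5 kb held 86 and 73, 33 and 66, 38 and 50, and 45 and 41. Their largest differences were 0.38 (SE 0.33, adjusted p = 0.791), -0.47 (SE 0.36, adjusted p = 0.44) and 0.67 (SE 0.26, adjusted p = 0.0287). At Il10 +18.5 kb both 30 min libraries were above UT, and the later ones overlapped it or lay below it.

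The remaining CREs were under the filter on low values in the IL-4 time course. Over the 4 times of IL-4 in order, Il10 -22.1 kb held 6 and 12, 7 and 1, 5 and 5, and 2 and 4 normalized reads. Il10 -18.8 kb held 4 and 2, 7 and 11, 4 and 2, and 2 and 0, and Il10 -17.1 kb held 7 and 9, 3 and 3, 6 and 1, and 2 and 7. These CREs, which LPS raised from near 0, stayed at 12 normalized reads or fewer. Il19 -7.3 kb held 8 and 2, 5 and 1, 4 and 1, and 2 and 2, and Il24 +12.1 kb held 8 and 0, 3 and 4, 2 and 4, and 5 and 4.

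Set against each other at the same times, LPS and IL-4 differed at 10 of the 11 members tested in all 18 DMSO libraries. Of the 50587 CREs tested, 58.4% were called in either direction and 29.2% were called higher after LPS at the time of the largest difference. For 9 of the 10 members the largest difference was higher after LPS. It was 4.30 (SE 0.24, adjusted p = 3.20e-24) at Il20 -7.3 kb at 2 h, 4.18 (SE 0.35) at Il10 -18.8 kb at 2 h, 2.93 (SE 0.21) at Il10 +18.5 kb at 1 h and 2.70 (SE 0.21) at Il10 +6.6 kb at 4 h. The Il10 start differed by 0.77 (SE 0.13, adjusted p of the F test 1.22e-07) at 4 h, under the difference of 1 needed for a call. Il10 +23.1 kb had its largest difference in the other direction, -1.41 (SE 0.20, adjusted p = 5.18e-09) at 30 min, and its differences at 1 h, 2 h and 4 h were 0.64, 0.61 and 0.76 (SE 0.20 each). Il10 +20.8 kb likewise had -0.74 (SE 0.27) at 30 min and 1.73 (SE 0.27) at 1 h. These comparisons share the UT libraries with the 2 time courses or the stimulated libraries themselves, so they are not independent of them.

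Beyond 25 kb and within 150 kb of a cytokine start lay 31 more CREs, 29 of them tested after LPS. Of these, 20 were called higher and 1 lower, and after IL-4 1 of 24 was called, higher. All of the higher ones but Il24 +146.4 kb, Il19 -34.2 kb and Il10 -32.2 kb lay between Il10 +26.5 kb and Il10 +96.3 kb, a stretch that holds Mapkapk2, the gene of a kinase that p38 activates. The one called lower, at -1.52 (adjusted p = 1.42e-06), was the promoter CRE of Dyrk3, the gene of a kinase. The promoter CRE of Eif2d, a translation factor gene, was at 0.19 (adjusted p = 0.742).

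**Figure D2:**
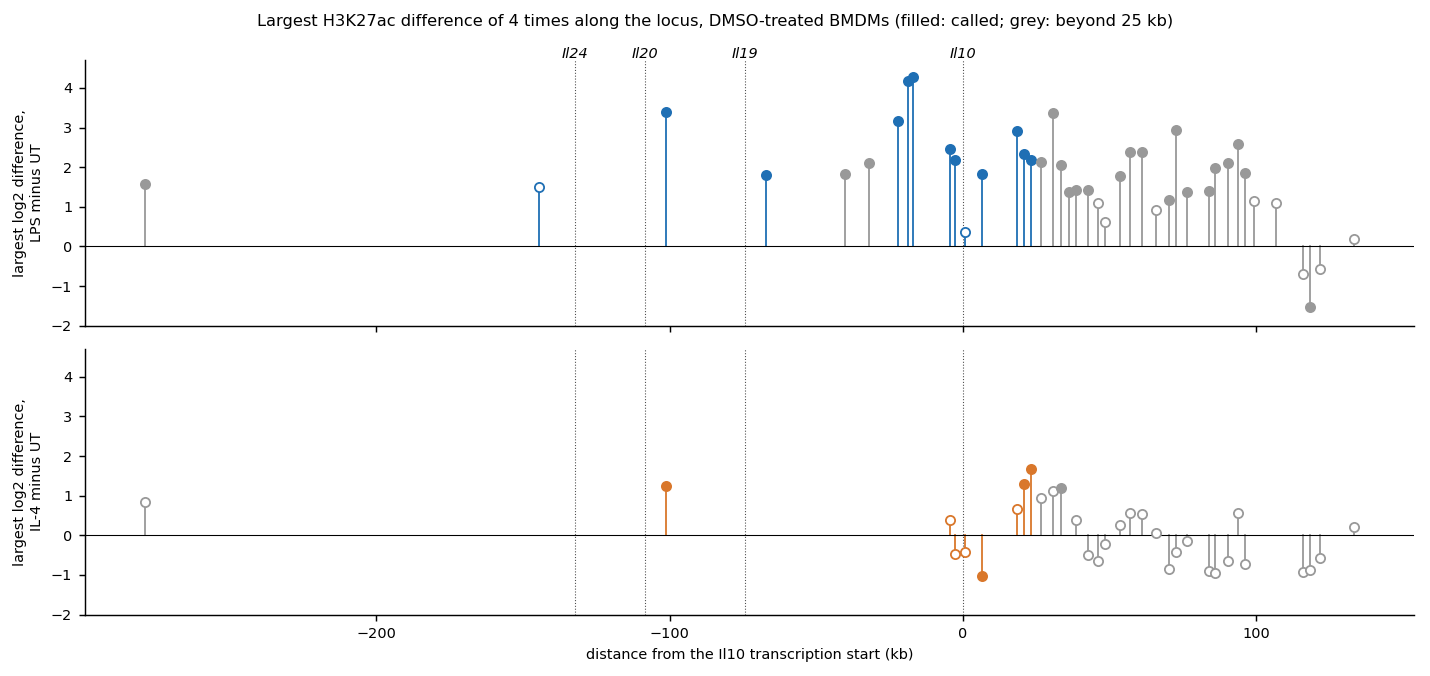
Largest of the 4 differences from UT in H3K27ac (vertical axis, log2(value + 5) scale) for each tested CRE against the distance of its centre from the Il10 start in kb, in DMSO-treated BMDMs, LPS above and IL-4 below. Coloured points are the CREs within 25 kb of a cytokine start, grey points those further out, filled points those called, and dotted lines the gene starts. After LPS the differences run from 1.82 to 4.29 at the called CREs around Il10 while Il10 +0.8 kb stays at 0.37.

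At other genes of the pathway, taken from fixed lists, the CRE nearest to the start and within 1 kb of it was read. Of the 6 receptor and signalling genes with such a CRE (9 listed), 2 rose after LPS, Tyk2 by 1.56 (adjusted p = 3.56e-12) and Socs3, the feedback inhibitor induced by STAT3, by 2.37 (adjusted p = 2.54e-21). Socs3 was also the 1 called after IL-4, at 1.07 (adjusted p = 2.58e-16). Stat3 was at 0.93 after LPS and -0.31 after IL-4, and Il10ra, the ligand-binding receptor chain, was at 0.52 and -0.36, none of them called. The list's median largest difference was 0.86 after LPS and 0.23 after IL-4, beside 0.37 and 0.21 over all CREs.

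Of 3 IL-10 target genes with a promoter CRE (4 listed), Nfil3, a repressor gene, was called after both stimuli, at 2.06 after LPS (adjusted p = 1.26e-12) and 2.44 after IL-4 (adjusted p = 3.14e-20). Of 9 regulators of Il10 with one (10 listed), Nfkb1, which encodes an NF-kB subunit, was higher by 1.84 after LPS (adjusted p = 9.78e-19) and 1.33 after IL-4 (adjusted p = 3.22e-18). Maf, the gene of a factor that activates Il10, fell by 1.94 on the log2 scale after LPS (adjusted p = 2.91e-13), with its largest difference at 30 min, and was at -0.39 after IL-4, not called. The medians of the target and regulator lists were 0.59 and 0.29 after LPS and -0.60 and 0.35 after IL-4. These shares of called genes lie at or below the 53.5% and 24.7% over all CREs except for the 3 target genes after IL-4, of which 1 was called.

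The promoter CREs whose pattern over the 9 DMSO group means was most like that of Il10 +0.8 kb were, among 6052 that ranged by at least 1 on the log2 scale, those of Chst11 (r = 0.95), Plekhn1 (r = 0.93), Klra2 (r = 0.92), Lrmda (r = 0.91) and Ceacam18 (r = 0.91). The range of Il10 +0.8 kb itself was 0.80. Within the locus, the correlations of Il10 +0.8 kb over the same 9 means ran from 0.36 with Il10 +23.1 kb to 0.90 with Il10 +6.6 kb, and Il10 -18.8 kb and Il10 -17.1 kb correlated at 0.96. These are descriptions over 9 points that share libraries and their scaling.

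The CKI-treated libraries gave a second set of time courses with many more libraries. With CKI as a factor, LPS against UT was fitted over 314 CKI libraries, and 8 of the 14 members were called, all higher (15.4% of CREs tested were called higher). They were Il20 -7.3 kb, the 5 CREs upstream of Il10, Il10 +18.5 kb and Il10 +20.8 kb. Their largest differences ran from 1.07 (SE 0.09) at Il10 +20.8 kb to 2.31 (SE 0.07) at Il20 -7.3 kb. The CKIs fall into 6 consecutive runs in the column order of the table. These runs were inferred from that order alone, and the labels give no batch. Within them, 5 members were called in run 1, where contrast was lowest, and 8 or 9 in each of the other 5. Shares over all CREs were not worked out within runs. Without the shallow PH797804 library 8 were called.

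Levels after LPS in CKI-treated cells were spread widely. Il20 -7.3 kb held from 18 to 118 normalized reads over the 73 UT libraries (median 46) and from 61 to 420 over the 62 libraries at 30 min of LPS (median 247), then a median of 249 at 1 h, 198 at 2 h and 166 at 4 h. Il10 -18.8 kb held from 3 to 148 in UT (median 20), and its medians were 49 at 30 min, 76 at 1 h, 99 at 2 h and 80 at 4 h of LPS. The early maximum of the one and the 2 h maximum of the other were thus the same times as in DMSO or next to them. For the Il10 start the medians were 420 in UT and 346.5, 329, 355 and 427 at the 4 times of LPS, and its largest difference was -0.36 (SE 0.06, adjusted p = 9.39e-13) at 1 h, where DMSO had 0.37.

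After IL-4, with limma, 0 of 14 members passed both thresholds in 305 CKI-treated libraries, against 8.84% of CREs tested. The adjusted p of limma was under 0.01 for 7 members, and the share of all CREs past that threshold alone was not worked out. The largest differences were -0.89 (SE 0.08, adjusted p = 7.98e-37) at Il10 +6.6 kb and 0.87 (SE 0.07, adjusted p = 3.69e-36) at Il10 +23.1 kb, the same signs as in DMSO. Il10 +23.1 kb held a median of 72 in UT, 148 at 30 min of IL-4, 131 at 1 h, 98 at 2 h and 73 at 4 h, and a median of 70.5 at 30 min of LPS and 137 at 2 h. The higher level after 30 min of IL-4 than after 30 min of LPS at this CRE was thus present in the medians of both arms. The rise of Il20 -7.3 kb at 30 min of IL-4 in DMSO (1.24) had 0.05 (SE 0.10) beside it in CKI-treated cells, and the difference at 2 h was -0.64 (SE 0.10). Within runs, 0 to 3 members were called, again without a share over all CREs.

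Within each CKI, the mean of LPS at 1, 2 and 4 h minus UT was above 0 in 58 of 58 CKIs at Il20 -7.3 kb (0.39 to 3.09, median 2.03), at Il10 +18.5 kb (0.36 to 2.21, median 1.26) and at Il10 +20.8 kb (0.05 to 2.20, median 0.82). The same difference in DMSO was 2.88, 2.71 and 2.09. It was above 0 in 18 of 58 CKIs at the Il10 start (-0.998 to 0.98, median -0.21), with 0.25 in DMSO. This difference was worked out for the members only, so the share of all CREs above 0 in every CKI is not known. At these 3 distal CREs the median CKI lay below DMSO, and the part of the lower contrast of the CKI libraries in this was not tested.

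**Figure D3:**
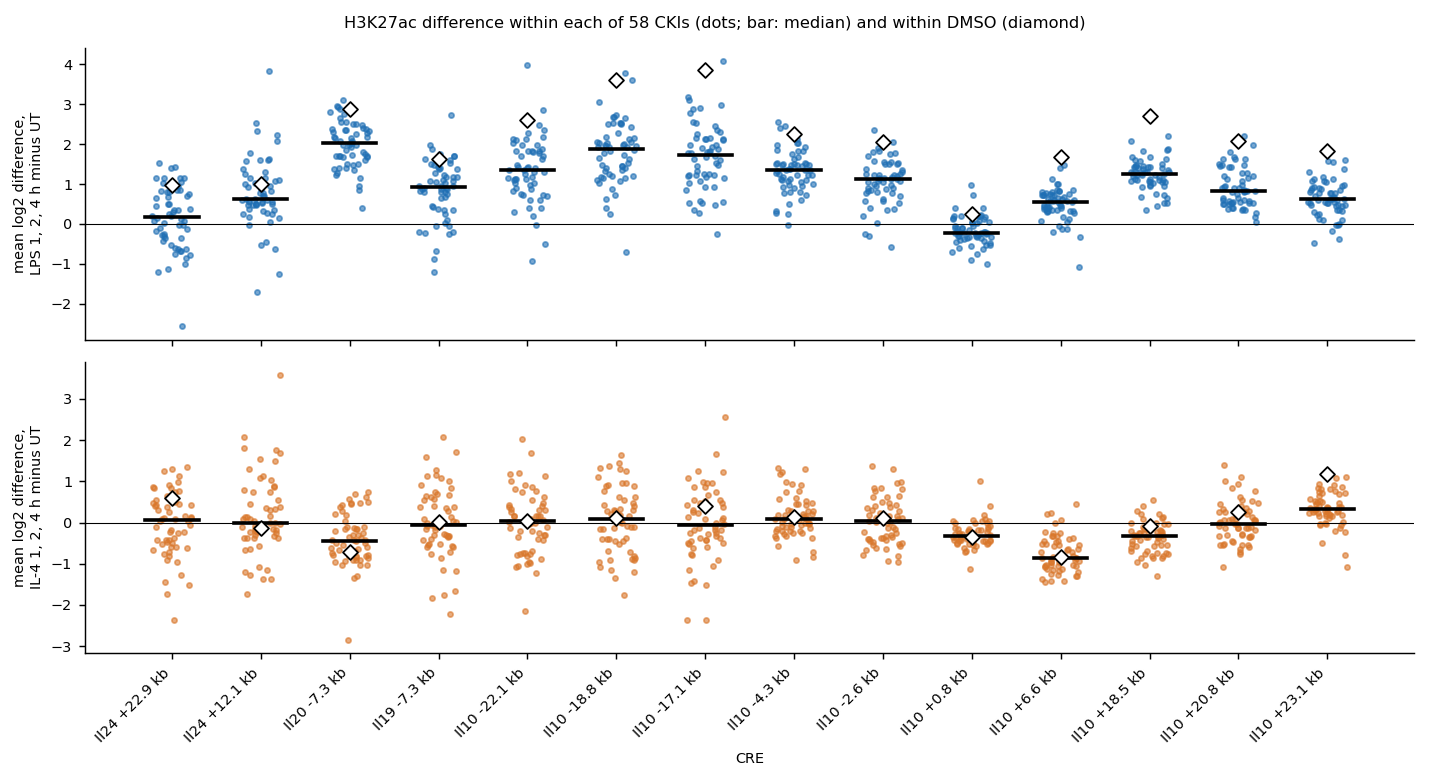
Mean difference from UT over 1, 2 and 4 h of LPS (above) or IL-4 (below) in H3K27ac, log2(value + 5) scale, at the 14 CREs. Each dot is 1 of 58 CKIs, the bar is their median and the diamond is DMSO, and there is no error on a dot because most groups have 1 library per CKI. After LPS all 58 dots lie above 0 at Il20 -7.3 kb, Il10 +18.5 kb and Il10 +20.8 kb, and 18 do at Il10 +0.8 kb.

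Against DMSO, adjusting for time, 255 of 812 pairs of member and CKI were called over the LPS and UT libraries at an adjusted p under 0.05 and a difference of more than 0.5. Of these 202 were higher with the CKI (24.9% of pairs, against 32.3% over all CREs) and 53 lower (6.53% against 4.04%). Of the higher pairs, most were at CREs with few reads in DMSO, 43 to 47 CKIs at each of Il24 +22.9 kb, Il24 +12.1 kb and Il19 -7.3 kb and 31 at Il10 -22.1 kb. Among the lower pairs, 27 were at Il10 +18.5 kb, where the CKI differences ran from -1.42 to 0.14 (median -0.49), 8 at the Il10 start and 8 at Il20 -7.3 kb. These counts include the shallow PH797804 library, without which PH797804 was at -1.10 (SE 0.23) from DMSO at Il10 +18.5 kb. Over the IL-4 and UT libraries 502 pairs were called, 500 higher (61.6% against 36.2%) and 2 lower (0.246% against 3.03%). Contrast had a median of 75.1 in DMSO and 17.6 in CKI libraries. The DMSO libraries lie outside the runs of CKIs in the table and differ from them in contrast, so an effect of CKIs as a whole and a difference between library sets cannot be told apart. With quantile normalization 36 and 49 pairs were called, and no share over all CREs is given for that setting.

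Comparison of each CKI with the other CKIs of its run, which leaves DMSO out, gave 9 called pairs of 812 after LPS (1.11%, against 1.1% of all pairs) and 13 after IL-4 (1.60% against 1.21%). After LPS, 7 of the 9 were PH797804, a p38 inhibitor, and the others were AZD2014 at Il10 -17.1 kb (-1.03, SE 0.27, adjusted p = 0.0266) and Pacritinib at Il24 +22.9 kb (1.07, SE 0.34, adjusted p = 0.0428).

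PH797804 had the lowest value of all 58 CKIs at the Il10 start over LPS and UT with all libraries, and without its shallow library it ranked behind AZD2014 and X396 against DMSO. Its libraries there held 338 normalized reads in UT and 24, 205, 233 and 259 at 30 min, 1 h, 2 h and 4 h of LPS, where 24 was the value of 1 read in its shallow 30 min library. Its differences were -1.31 (SE 0.19, adjusted p = 1.85e-09) from DMSO and -1.54 (SE 0.16, adjusted p = 9.47e-15) from its run. Without the shallow library they were -0.70 (SE 0.18, adjusted p = 0.000425) and -0.94 (SE 0.16, adjusted p = 4.36e-06). At Il10 +18.5 kb its difference from the run was -1.31 (SE 0.19) with that library and -0.998 (SE 0.20, adjusted p = 4.34e-05) without it, while the calls at Il10 -4.3 kb, Il10 -2.6 kb, Il10 +6.6 kb and Il10 +23.1 kb were lost and those at Il19 -7.3 kb (1.21, SE 0.33) and Il10 -22.1 kb (0.81, SE 0.31) were gained, both higher than the run. Without that library Pacritinib was also called against the run at the Il10 start (-0.51, SE 0.15, adjusted p = 0.0395), which made 8 called pairs. The PH797804 libraries at 1 h, 2 h and 4 h of LPS also had low contrast, 10.3, 4.81 and 3.37, in a run with a median of 35.1. The part of this in the PH797804 values was not tested. After IL-4, where its contrast was 7.26 to 11.2, PH797804 was called higher than its run at 8 members, from 0.65 (SE 0.21) at Il10 +18.5 kb to 1.68 (SE 0.37) at Il19 -7.3 kb. The share of all CREs called for PH797804 alone was not worked out for either stimulus. Its counts of called members therefore do not set the locus apart from other CREs.

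The other p38 inhibitors, which lie in different runs, did not share one level at the Il10 start against DMSO over LPS and UT. Losmapimod, in run 6, was at -0.41 (SE 0.19, adjusted p = 0.0517) from DMSO. It held 185 normalized reads at 4 h of LPS, the lowest of all CKI libraries at that time. In that library 1 read had an estimated value of 12.3 normalized reads. Talmapimod, in run 2, was at -0.07 (SE 0.19). VX702, in run 4, was at 0.31 (SE 0.18), with 774 in its 4 h library. The part of run and depth in these differences was not tested. The next lowest CKIs after PH797804, with all libraries, were AZD2014 (-0.84, SE 0.19, adjusted p = 8.62e-05) and X396 (-0.73, SE 0.19, adjusted p = 0.00061), and neither was called against its run (-0.34 and -0.23). The 3 highest were GSK461364 (0.38), Tofacitinib (0.35) and Selumetinib (0.34), with SE 0.19 each and adjusted p of 0.247, 0.292 and 0.35, all in run 4. At 4 h of LPS the level at the Il10 start went with the run, with medians of 301, 421, 450.5, 729.5, 438.5 and 379 normalized reads in runs 1 to 6.

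Over the IL-4 and UT libraries, the 2 called pairs at the Il10 start, in both comparisons, were the PI3K and mTOR inhibitors Omipalisib and BGT226. BGT226 held 391 normalized reads in UT and 230, 211, 163 and 156 at 30 min, 1 h, 2 h and 4 h of IL-4. Omipalisib held 259 in UT and 155, 255, 150 and 181. The median over all CKI libraries in UT was 420, so Omipalisib was already low before the stimulus. In its IL-4 libraries 1 read had an estimated value of 6.02 to 12.9 normalized reads. Over all CKI libraries the medians at the 4 times were 381.5, 366, 340.5 and 310, so both compounds lay below them throughout, and at each time the lowest CKI library was 1 of these 2. Their differences from DMSO over IL-4 and UT were -0.53 (SE 0.12, adjusted p = 0.000213) and -0.69 (SE 0.12, adjusted p = 2.15e-07), and from their runs -0.74 (SE 0.10, adjusted p = 1.35e-09) and -0.65 (SE 0.10, adjusted p = 4.30e-07). The call of BGT226 against DMSO was lost with quantile normalization (-0.44), with a pseudocount of 20 (-0.50) and without DMSO replicate 2 (-0.50). AZD2014, next lowest after IL-4, was at -0.19 (SE 0.12, adjusted p = 0.169) from DMSO, and the 3 highest, ONO4059analogue, VX702 and Selumetinib, were at 0.42, 0.41 and 0.41, under the difference needed for a call.

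After LPS the same 2 compounds lay below the CKI median of 346.5 at 30 min and above the medians of 329, 355 and 427 at 1, 2 and 4 h. BGT226 held 261, 380, 473 and 786 at the 4 times of LPS and Omipalisib 220, 358, 368 and 608, the highest 4 h libraries of their runs. Their differences from the run over LPS and UT were 0.17 (SE 0.17, adjusted p = 0.775) and 0.30 (SE 0.16, adjusted p = 0.262). The mean log2 level at 1, 2 and 4 h of LPS minus that of IL-4, a description chosen after the values were seen, was 1.55 for BGT226 and 1.16 for Omipalisib, the highest of the 58 CKIs, against 0.60 in DMSO and a median of 0.13 over the CKIs. Whether these compounds differ between the stimuli was not tested.

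**Figure D4:**
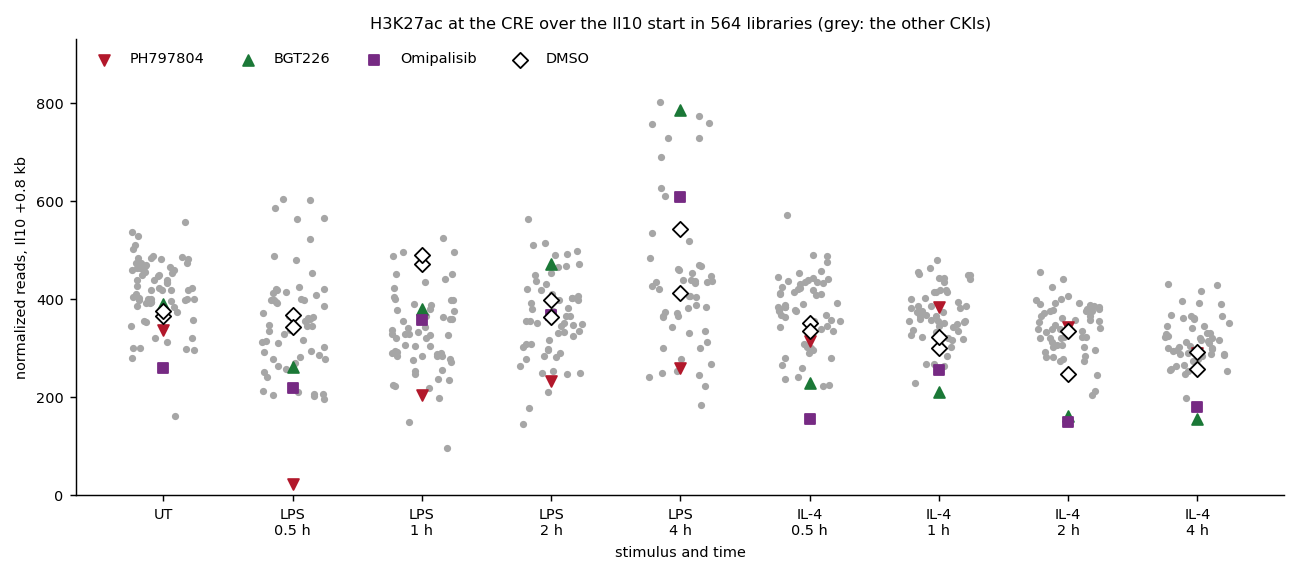
Normalized H3K27ac reads at Il10 +0.8 kb (vertical axis, linear) in all 564 libraries by stimulus and time. Grey dots are single libraries of the other CKIs, open diamonds the DMSO replicates, and coloured symbols PH797804, BGT226 and Omipalisib. At 4 h BGT226 is at 786 after LPS and at 156 after IL-4, and PH797804 is at 24 in its shallow library at 30 min of LPS.

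By designated target, the CKIs held 4 classes (5 MEK/ERK, 4 p38, 6 JAK and 9 PI3K/mTOR/AKT inhibitors), each compared with the other CKIs by limma over compounds. After LPS, with all libraries, 0 of 56 pairs of member and class passed an adjusted p of 0.05 (0.00254% of all pairs did) and 7 had an unadjusted p under 0.05. After IL-4 0 of 56 passed (0% of all pairs) and 6 had an unadjusted p under 0.05. No share of all pairs at the unadjusted threshold is given, so these unadjusted counts do not set the locus apart from other CREs. The p38 class after LPS was at -0.48 (SE 0.16, adjusted p = 0.134) at the Il10 start and at -0.45 (SE 0.14, adjusted p = 0.128) at Il10 +18.5 kb. Without the shallow PH797804 library these were -0.31 and -0.37.

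The PI3K/mTOR/AKT class after IL-4 was at -0.26 (SE 0.07, adjusted p = 0.16) at the Il10 start, with 7 of 9 compounds below their run mean, from -0.80 to 0.16. At Il10 -4.3 kb it was at -0.34 (SE 0.09, adjusted p = 0.179). After LPS the same class was at -0.03 (SE 0.11) at the Il10 start. The JAK class was at -0.07 (SE 0.13) after LPS and -0.01 (SE 0.08) after IL-4 there, and the MEK/ERK class at 0.02 (SE 0.14) and -0.03 (SE 0.09).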

How the data were processed

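H3K27ac ChIP-seq of BMDMs was deposited by the authors as a table of normalized read counts per CRE. Per the study's methods, reads of 51 bases were mapped to mm10, counted around ATAC-seq summits and scaled with invariant peaks. The deposited values are whole numbers after scaling, a score rather than raw counts, so count models were not used. Tests used limma 3.58.1 (R 4.3.3) on log2(value + 5), with CREs of mean under 10 left out, moderated F or contrast tests with a mean trend, and Benjamini-Hochberg adjustment over all CREs tested, separately for each CKI or class. Time courses used the DMSO libraries of UT and 1 stimulus, or the CKI libraries with CKI as a factor. CKIs were tested against DMSO or run mates with time as a factor, and classes over compounds with the run, inferred from column order, as a factor. Full values were given for every member CRE called in a DMSO time course or nearest to its gene, and CKIs were named by the 3 lowest and 3 highest values at the Il10 start and by class. The members and lists were chosen with earlier results of these data known. Genes, starts and sequences are from RefSeq GRCm38.p6, which has the mm10 coordinates. Tests were checked on simulated data. Alternatives were another pseudocount, no filter, quantile normalization, a replicate block, left-out libraries, other windows, thresholds and references.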

Additional observations from a re-analysis of the deposited data

Results flagged for a closer look

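The difference between 4 h and 30 min of a stimulus in DMSO passed the test and a difference of 1 on the log2 scale at 9 places, so the effect of the stimulus differed between these times. After LPS the values were -1.32 at Il20 -7.3 kb, 2.81 at Il10 -22.1 kb, 1.69 at Il10 -18.8 kb, 1.22 at Il10 -17.1 kb, 1.39 at Il10 +20.8 kb and 1.19 at Il10 +23.1 kb. After IL-4 they were -2.32 at Il20 -7.3 kb, -1.39 at Il10 +6.6 kb and -1.40 at Il10 +20.8 kb.

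In 1 of 32 groups of compounds examined at the CREs nearest to each gene, 1 compound lay far from the rest of its class: PH797804, at -0.52 from its run mean after LPS at Il20 -7.3 kb, while the other 3 p38 inhibitors lay between -0.09 and -0.03. Chance marks about 1 in 20 such groups, and the value includes the shallow library at 30 min. Without that library PH797804 was at -0.24 (SE 0.21, adjusted p = 0.315) from its run over LPS and UT at this CRE.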

How the results depend on the processing

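Within 10 kb lay 6 CREs, of which 5 were called after LPS, 2 after IL-4 and 4 between LPS and IL-4. Within 50 kb lay 24, with 19, 5 and 19 called, against 11, 4 and 10 of the 14 within 25 kb. Not all of them passed the filter on low values. Over all CREs tested, 53.5%, 24.7% and 58.4% were called in these 3 comparisons. With a pseudocount of 20, 1 CRE was called after IL-4. Leaving out single DMSO libraries gave 10 to 11 calls after LPS, 3 to 4 after IL-4 and 10 in each case between the stimuli. The replicate block, which uses the replicate number, gave 11, 4 and 10, and the numbers share nothing else in the labels: the replicate differences of pairs of groups correlated from -0.09 to 0.07 (median 0.00, 36 pairs). In CKI-treated cells, 5 CREs were called after LPS within run 1, and after IL-4 1, 1, 2 and 3 within runs 1, 2, 4 and 5. Against DMSO, the pairs of CRE and CKI fell from 255 to 36 after LPS and from 502 to 49 after IL-4 with quantile normalization, and to 9 and 13 with the run as reference, or 8 after LPS (5 of PH797804, 2 of Pacritinib, 1 of AZD2014) without the shallow PH797804 library as well, a choice made after seeing the data. Without DMSO replicate 1 or 2 they were 167 to 206 after LPS and 403 to 417 after IL-4. No share over all CREs is given for the counts with quantile normalization or without a DMSO replicate. Leaving out a compound gave 0 to 4 class calls after LPS, 4 without Talmapimod, 1 without VX702 and 2 without Pacritinib, all for the p38 class, and 0 in each case after IL-4. The fits that gave these p38 calls included the shallow PH797804 library, and the calls are given only with it. No share over all CREs is given for these fits, so the p38 counts do not set the locus apart from other CREs. Of 652 values for single CREs under the alternatives, 630 kept their side of the thresholds, 21 fell short and 1 newly passed, and 0 reversed. The 630 include values from a lower log2 threshold on the same fit, where a called CRE of the DMSO comparisons could only keep its side. Where no cause is named, the cause was not tested. Depth limits CREs of a few reads, which includes both at Il24 and the UT level of 3 upstream of Il10.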
